A study of Mus musculus with 9 samples.

Results

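The 5 named genes, *Lrig2*, *Pik3c3*, *Eaf2*, *Tmem181a* and *Cnbd2*, were higher in B cells of Mct1f/fMb1Cre mice than in those of Mb1Cre mice both before and after activation. These 5 of the 17596 genes in the table were chosen from that same difference, as genes with a symbol other than a predicted one that were higher on day 0 and on day 3 by more than 0.5 on the log2 scale at an adjusted p under 0.05. Their genotype differences are therefore given as a description with no test, and the tests below concern the change with activation and genes outside the 5. The activation change within a genotype uses group means that also chose the genes. A difference in such calls between the genotypes is therefore not read as a result. All 5 were among the 10823 genes tested, which had a mean of at least 1 FPKM (fragments mapped to a gene, scaled to transcript length and library size) over the libraries.

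RNA was sequenced from splenic primary B cells of mice in 4 groups. The groups were Mb1Cre day 0 (2 libraries, naive cells), Mct1f/fMb1Cre day 0 (2 libraries, naive cells), Mb1Cre day 3 (2 libraries) and Mct1f/fMb1Cre day 3 (3 libraries), and the day 3 cells were cultured with LPS at 10 µg/ml and IL-4 at 50 ng/ml. Mb1Cre is a Cre allele at *Cd79a* that acts in the B cell lineage and is carried by all 9 libraries, the controls included. *Mct1f/f* was made with CRISPR-Cas9 on a C57BL/6J background and carries loxP sites at exon 1 and intron 3 of *Mct1*, which the table lists as *Slc16a1*. Mice of both genotypes were 6 to 8 weeks old by the general methods, which do not give the age for each library. The sources used here do not give the sex of the mice behind a library or say whether animals were pooled or controls were littermates, so p-values measure the spread between these libraries.

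The 5 genes have different known functions. *Lrig2* encodes a transmembrane protein with leucine-rich repeats and immunoglobulin domains that modulates growth factor receptor signalling. *Pik3c3* encodes VPS34, the class III phosphatidylinositol kinase that makes the lipid PI3P for autophagy and endosomal sorting. *Eaf2* encodes a partner of the ELL transcription elongation factors and is known from apoptosis of germinal centre B cells. *Tmem181a* encodes a multi-pass membrane protein, and *Cnbd2* a protein with a cyclic nucleotide binding domain that is known from sperm.

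RefSeq start windows are shown for 3 of the genes, *Lrig2*, *Eaf2* and *Tmem181a*, as a description. None is shown for *Pik3c3* or *Cnbd2*. Each line gives the 250 bases before an annotated start in GRCm38.p6, 5′ to 3′ on the strand of the gene, and capitals mark matches on either strand to the GC box (GGGCGG), the CCAAT box (CCAAT), the TATA box (TATAAA), the E-box (CACGTG) or the ETS core (CCGGAAG). *Eaf2* has 3 such windows and *Tmem181a* has 2, of which the first is shown. The *Lrig2* window lies outside the annotated span of its gene. The *Eaf2* window lies almost wholly, and the *Tmem181a* window partly, inside the annotated span, which begins farther upstream. All marked matches of *Eaf2* therefore stand within the span of the gene.
Lrig2, chr3:104511919-104512168, minus strand: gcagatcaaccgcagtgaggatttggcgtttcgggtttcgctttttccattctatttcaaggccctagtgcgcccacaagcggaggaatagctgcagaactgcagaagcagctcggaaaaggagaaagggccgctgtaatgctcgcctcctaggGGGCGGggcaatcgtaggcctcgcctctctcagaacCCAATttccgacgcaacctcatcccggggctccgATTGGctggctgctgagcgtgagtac
Eaf2, chr16:36874827-36875076, minus strand: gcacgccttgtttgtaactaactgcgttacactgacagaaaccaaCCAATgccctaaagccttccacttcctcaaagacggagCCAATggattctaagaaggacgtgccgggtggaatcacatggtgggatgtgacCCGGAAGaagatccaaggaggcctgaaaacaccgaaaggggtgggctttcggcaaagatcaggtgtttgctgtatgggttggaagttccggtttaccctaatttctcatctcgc
Tmem181a, chr17:6256610-6256859, plus strand: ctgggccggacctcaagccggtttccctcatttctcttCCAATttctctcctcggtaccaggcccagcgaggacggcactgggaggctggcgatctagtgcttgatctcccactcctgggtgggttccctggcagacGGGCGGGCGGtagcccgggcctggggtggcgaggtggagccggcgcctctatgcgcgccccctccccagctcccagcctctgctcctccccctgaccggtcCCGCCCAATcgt
The CCAAT box was the only one of the 5 motifs found in all 3 windows, with 2 matches in each. It stood in 33.8% of 32851 RefSeq start windows of the same length. The GC box had 1 match in *Lrig2*, none in *Eaf2* and 3 in *Tmem181a*, and stood in 32.7% of all windows. In *Tmem181a*, 2 GC boxes overlap in the run of 10 capitals and another overlaps a CCAAT match in the run of 9. The ETS core was found only in *Eaf2* and stood in 6.91% of all windows, and neither the TATA box nor the E-box, which stood in 12.4% and 6.02%, was found in the 3 windows.

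The floxed gene itself was lower in Mct1f/fMb1Cre cells on day 3 and not on day 0. *Slc16a1*, a transporter of lactate and pyruvate, had 4.33 and 3.80 FPKM in the Mb1Cre day 0 libraries and 3.71 and 4.06 FPKM in the Mct1f/fMb1Cre day 0 libraries, which overlap. On day 3 it had 22.6 and 22.9 FPKM in Mb1Cre cells and 10.8, 9.81 and 9.50 FPKM in Mct1f/fMb1Cre cells. The day 3 difference was -1.11 ± 0.07 on the log2 scale (SE, limma adjusted p = 9.07e-06), and that on day 0 was -0.05 ± 0.08 (adjusted p = 0.844). On day 0 the 5 genes differed in FPKM, as they were chosen to, and *Slc16a1* did not pass the test. These values are for the whole gene, and loss of its floxed part was not examined.

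The libraries also differed in sex-linked and cell type marker transcripts, both within and between genotypes. The Y-linked gene *Ddx3y* stood at 0.24 and 0.02 FPKM in the Mb1Cre day 0 libraries, 31.1 and 0.20 FPKM in the Mct1f/fMb1Cre day 0 libraries and 14.7 to 16.9 FPKM in the 5 day 3 libraries, so sex and activation cannot be told apart in the control. All 8 B cell markers were detected in every group, with a summed level of 4683 to 5108 FPKM on day 0 and 2698 to 2837 FPKM on day 3, and 0 of 8 were called between genotypes on either day. The 8 myeloid markers summed to 1020 and 1214 FPKM in the Mb1Cre and 1829 and 1107 FPKM in the Mct1f/fMb1Cre day 0 libraries, and on day 3 to 15.5 to 17.3 FPKM in Mb1Cre and 23.1 to 26.2 FPKM in Mct1f/fMb1Cre libraries. Of these 8, *Lyz2* and *Adgre1* were called on day 3, both higher in Mct1f/fMb1Cre cells, by 0.71 and 0.68 on the log2 scale. The rest were not called and went both ways on day 3, from -0.82 for *S100a9* to 0.36 for *Itgam*. *Lyz2* alone stood at 10.04 to 11.48 FPKM in Mb1Cre and 16.78 to 20.36 FPKM in Mct1f/fMb1Cre libraries on day 3, a large part of these sums. On day 0 the erythroid gene *Hba-a1* (0.64) and the plasma cell gene *Jchain* (0.97) were called higher in Mct1f/fMb1Cre cells, 1 of 6 and 1 of 5 genes of their lists. The plasma cell markers summed to 185 to 197 FPKM in Mb1Cre and 239 to 282 FPKM in Mct1f/fMb1Cre libraries on day 0, and on day 3 the order was the opposite, with 457 to 473 FPKM in Mb1Cre and 379 to 408 FPKM in Mct1f/fMb1Cre libraries. The other 4 plasma cell genes had day 0 differences between -0.20 and 0.07. On day 3 no plasma cell gene was called, with *Sdc1* (0.17) and *Prdm1* (0.19) higher in Mct1f/fMb1Cre cells and *Irf4* (-0.49), *Jchain* (-0.47) and *Xbp1* (-0.11) lower. No T or NK cell marker was called on either day. Mct1f/fMb1Cre day 0 replicate 1 had the highest *Ddx3y*, myeloid sum and erythroid sum (231 FPKM) of the 9 libraries and, of the 5 genes, the highest *Lrig2*, *Pik3c3*, *Eaf2* and *Cnbd2*. The part of sex and of other cells in the results below was not tested, and in bulk RNA fewer cells of a type and less RNA per cell cannot be told apart.

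**Figure D1:**
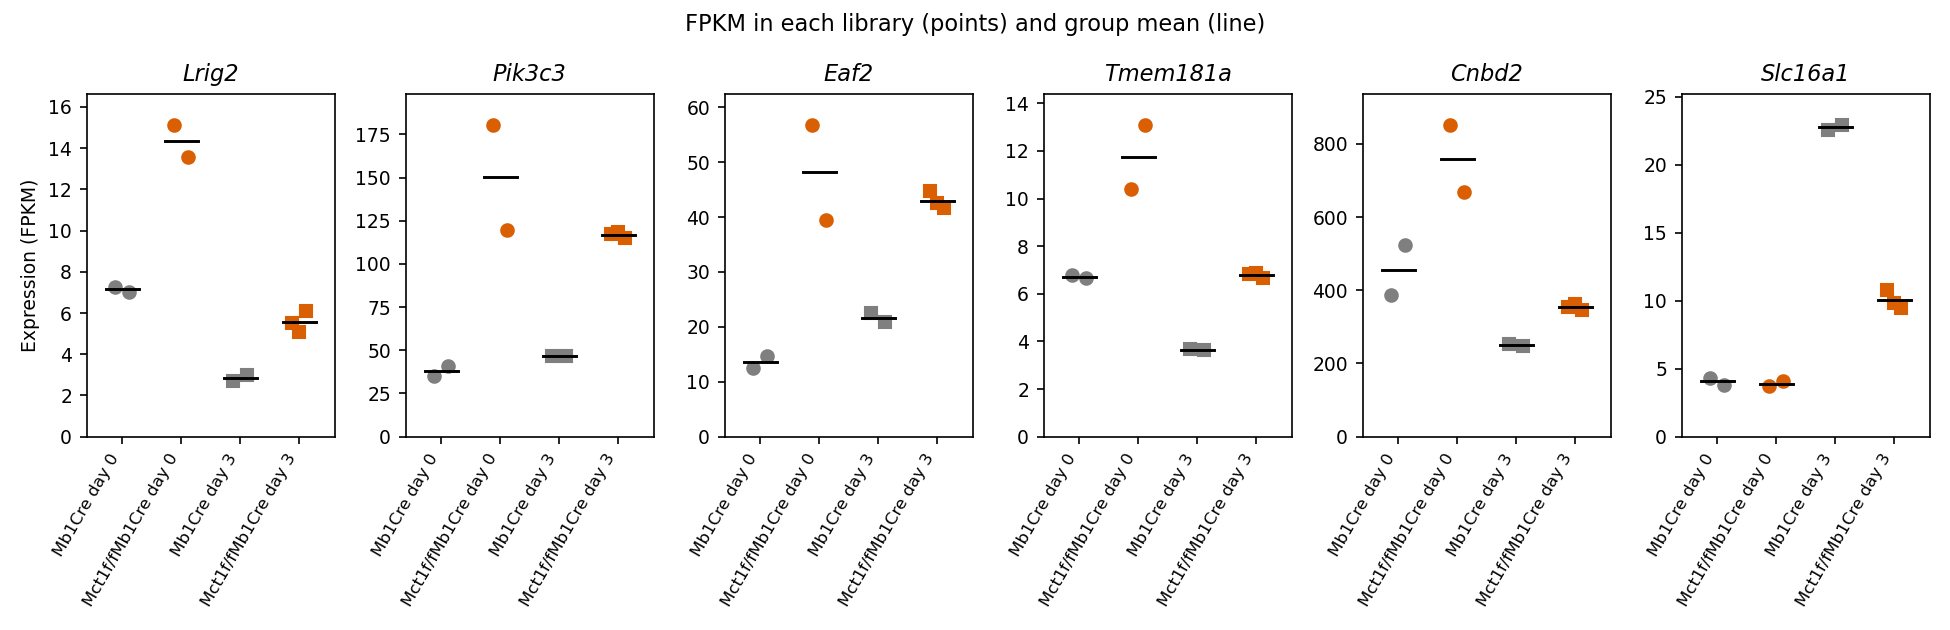
Expression in FPKM (vertical axis, from 0) of the 5 genes and *Slc16a1* in each of the 9 libraries, by group (horizontal axis). Points are libraries and lines are group means. In every panel but that of *Slc16a1*, the Mct1f/fMb1Cre libraries (orange) sit above the Mb1Cre libraries (grey) of the same day, and for *Pik3c3* the day 0 Mct1f/fMb1Cre libraries stand at 181 and 119.9 FPKM against 35.4 and 40.9 FPKM.

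*Lrig2* was higher in Mct1f/fMb1Cre cells on each day and fell with activation in each genotype. It had 7.28 and 7.02 FPKM in the Mb1Cre day 0 libraries, 15.1 and 13.6 FPKM in the Mct1f/fMb1Cre day 0 libraries, 2.72 and 3.01 FPKM in the Mb1Cre day 3 libraries and 5.54, 5.08 and 6.09 FPKM in the Mct1f/fMb1Cre day 3 libraries. The order of the groups was Mct1f/fMb1Cre day 0, Mb1Cre day 0, Mct1f/fMb1Cre day 3 and Mb1Cre day 3, with no overlap between neighbours. The genotype difference on the log2(FPKM + 1) scale, on which all differences here are given, was 0.91 (95% interval 0.72 to 1.10) on day 0 and 0.76 (0.59 to 0.94) on day 3. The fall from day 0 to day 3 was -1.08 ± 0.09 in Mb1Cre cells (SE, limma adjusted p = 3.61e-07) and -1.22 ± 0.08 in Mct1f/fMb1Cre cells (adjusted p = 4.94e-08). The median of all tested genes moved by -0.12 and -0.14 in these comparisons, so *Lrig2* fell by more than the median gene.

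*Pik3c3* had the largest genotype difference of the 5 on each day and no called change with activation. It had 35.4 and 40.9 FPKM in the Mb1Cre day 0 libraries, 181 and 119.9 FPKM in the Mct1f/fMb1Cre day 0 libraries, 46.9 and 46.9 FPKM in the Mb1Cre day 3 libraries and 117, 118 and 115 FPKM in the Mct1f/fMb1Cre day 3 libraries. The 2 Mct1f/fMb1Cre day 0 libraries differed from each other more than any other pair within a group, and the lower one lay just above the day 3 range. The order of the groups was Mct1f/fMb1Cre day 0, Mct1f/fMb1Cre day 3, Mb1Cre day 3 and Mb1Cre day 0. The genotype difference was 1.93 (95% interval 1.61 to 2.24) on day 0 and 1.30 (1.02 to 1.59) on day 3, which in group means was 150.3 against 38.1 FPKM and 117 against 46.9 FPKM.

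The activation change of *Pik3c3* had opposite signs in the genotypes and passed the limits in neither. It was 0.29 ± 0.14 in Mb1Cre cells (SE, limma adjusted p = 0.0711) and -0.33 ± 0.13 in Mct1f/fMb1Cre cells (adjusted p = 0.0326, below the limit of 0.5 on the change). Averaged over the genotypes it was -0.02 ± 0.10 (adjusted p = 0.870), with a 95% interval from -0.23 to 0.19. The sign of that average depended on the scaling, with 0.20 under median-of-ratios scaling, and on 2 of the day 0 libraries, with 0.03 without Mb1Cre day 0 replicate 2 and 0.13 without Mct1f/fMb1Cre day 0 replicate 1. The change in Mb1Cre cells was called under median-of-ratios scaling (0.50), and that in Mct1f/fMb1Cre cells under scaling to a common total (-0.51), quantile normalization (-0.53) and without Mct1f/fMb1Cre day 0 replicate 2 (-0.62).

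*Eaf2* was called higher with activation in Mb1Cre cells and was not called in Mct1f/fMb1Cre cells, where it was high on both days. It had 12.4 and 14.6 FPKM in the Mb1Cre day 0 libraries, 56.8 and 39.5 FPKM in the Mct1f/fMb1Cre day 0 libraries, 22.5 and 20.8 FPKM in the Mb1Cre day 3 libraries and 44.7, 42.6 and 41.7 FPKM in the Mct1f/fMb1Cre day 3 libraries. The Mct1f/fMb1Cre libraries of the 2 days overlapped and stood above Mb1Cre day 3, which stood above Mb1Cre day 0. The genotype difference was 1.74 (95% interval 1.45 to 2.03) on day 0 and 0.96 (0.69 to 1.22) on day 3.

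The rise of *Eaf2* in Mb1Cre cells was 0.64 ± 0.13 (SE, limma adjusted p = 0.000825), and it was 0.45 under scaling to a common total, below the limit of 0.5. In Mct1f/fMb1Cre cells the change was -0.14 ± 0.12 (adjusted p = 0.302), and it turned to 0.077 under median-of-ratios scaling and to 0.12 without Mct1f/fMb1Cre day 0 replicate 1. Averaged over the genotypes it was 0.25 ± 0.09 (adjusted p = 0.0197), which did not reach the limit on the change. The group means in the changes within a genotype also chose *Eaf2*, so its differing calls are not read as a genotype effect.

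*Tmem181a* differed by nearly the same amount between genotypes on both days and fell with activation. It had 6.78 and 6.65 FPKM in the Mb1Cre day 0 libraries, 10.4 and 13.1 FPKM in the Mct1f/fMb1Cre day 0 libraries, 3.67 and 3.64 FPKM in the Mb1Cre day 3 libraries and 6.82, 6.87 and 6.66 FPKM in the Mct1f/fMb1Cre day 3 libraries. The Mct1f/fMb1Cre day 3 libraries overlapped with those of Mb1Cre day 0, and both groups lay between Mct1f/fMb1Cre day 0 and Mb1Cre day 3. The genotype difference was 0.72 (95% interval 0.52 to 0.91) on day 0 and 0.74 (0.56 to 0.92) on day 3. The fall with activation was -0.73 ± 0.09 in Mb1Cre cells (SE, limma adjusted p = 1.29e-05) and -0.70 ± 0.08 in Mct1f/fMb1Cre cells (adjusted p = 7.60e-06). Its average, -0.72, fell short of the limit of 0.5 under quantile normalization (-0.48) and with a pseudocount of 5 (-0.47).

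*Cnbd2* was among the most abundant transcripts by FPKM, ranking 135 of 17596 genes in Mb1Cre day 0 and 183 in Mct1f/fMb1Cre day 3 by group mean. It had 388.5 and 523 FPKM in the Mb1Cre day 0 libraries, 853 and 667 FPKM in the Mct1f/fMb1Cre day 0 libraries, 254 and 247 FPKM in the Mb1Cre day 3 libraries and 354, 364 and 347 FPKM in the Mct1f/fMb1Cre day 3 libraries. The order of the groups was that of *Lrig2*, with no overlap between neighbours. The genotype difference was 0.74 (95% interval 0.46 to 1.02) on day 0 and 0.50 (0.24 to 0.76) on day 3, the smallest of the 5 on day 3. It did not pass both limits on both days when any of 7 of the 9 libraries was left out (all but Mb1Cre day 0 replicate 2 and Mct1f/fMb1Cre day 0 replicate 2). Its change with activation was -0.85 ± 0.13 in Mb1Cre cells (SE, limma adjusted p = 7.99e-05) and -1.09 ± 0.12 in Mct1f/fMb1Cre cells (adjusted p = 4.47e-06).

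Activation changed 3 of the 5 genes in the same way in both genotypes. *Lrig2*, *Tmem181a* and *Cnbd2* were called lower on day 3 in the average over the genotypes, against 57.0% of all tested genes called in either direction, so that 3 of 5 is near the share of all genes. In Mb1Cre cells 4 of the 5 were called, 3 lower and *Eaf2* higher, with 57.8% of all genes called. In Mct1f/fMb1Cre cells the same 3 were called lower, with 56.5% of all genes called. In the averages over genotypes and over days, the genotype difference was larger than the activation change for *Pik3c3* (1.61 against 0.02 in size), *Eaf2* (1.35 against 0.25) and, narrowly, *Tmem181a* (0.73 against 0.72), and smaller for *Lrig2* (0.84 against 1.15) and *Cnbd2* (0.62 against 0.97).

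**Figure D2:**
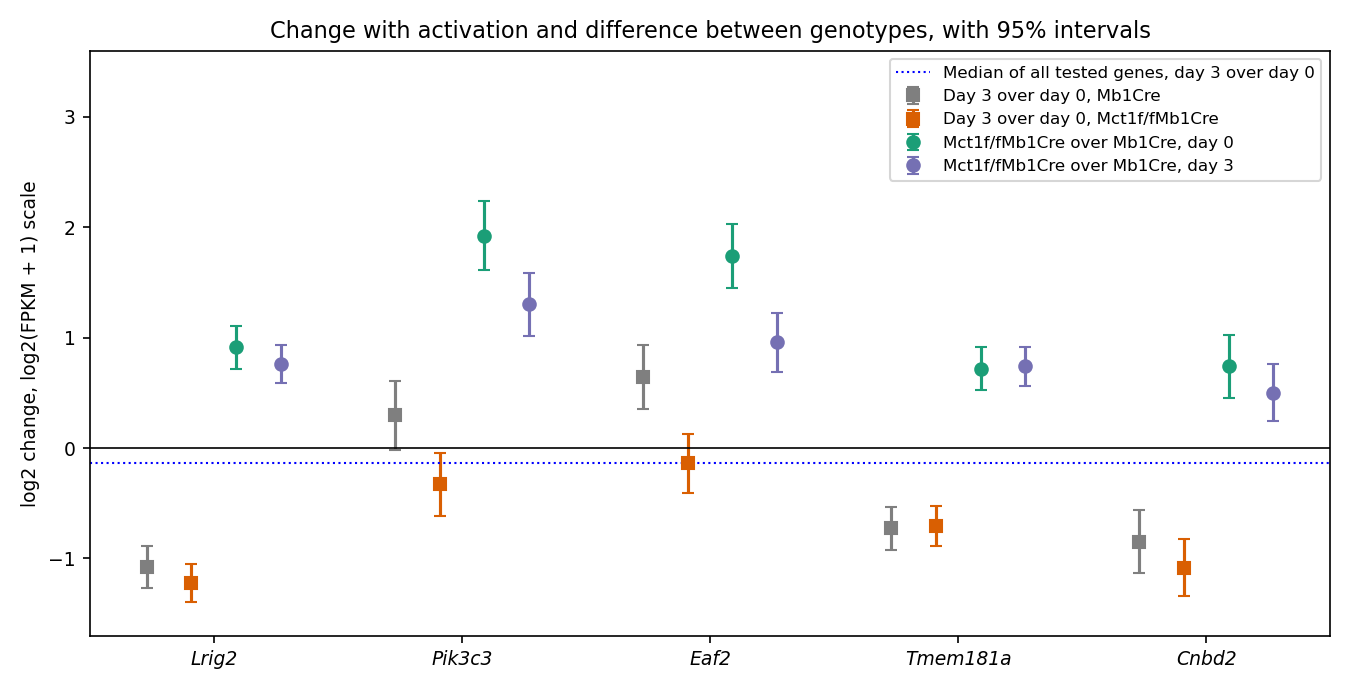
The log2 change of each of the 5 genes (vertical axis, log2(FPKM + 1) scale) with activation in each genotype (squares) and between genotypes on each day (circles), with 95% intervals from limma, and the median activation change of all tested genes (dotted line, -0.14). The circles are above 0 for all 5 genes, which were chosen for this, and the squares are near -1 for *Lrig2* and *Cnbd2* and on either side of 0 for *Pik3c3*.

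The genotype differences of the 2 days are set side by side as a description. The day 3 minus day 0 difference was -0.62 (95% interval -1.05 to -0.20) for *Pik3c3* and -0.78 (-1.18 to -0.39) for *Eaf2*. It was -0.15 (-0.41 to 0.11) for *Lrig2*, 0.02 (-0.24 to 0.29) for *Tmem181a* and -0.24 (-0.62 to 0.15) for *Cnbd2*. Both contrasts in these differences chose the genes, so the intervals describe the spread between libraries and are not read as a test. Over all tested genes, 2.22% were called lower and 1.02% higher in this difference, from which nothing is read about the 5 genes.

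The values that chose the genes stood against few calls in all. Of the tested genes, 0.277% were called between genotypes on day 0 and 2.42% on day 3, and 0.157% (17 genes) were called higher in Mct1f/fMb1Cre on both days, of which 12 are predicted genes and 5 are the genes described here. Without overlap between libraries, 18.7% of tested genes were higher in Mct1f/fMb1Cre on day 0 and 21.0% on day 3, and all 5 were among them on both days. The gene just inside the limits was *Cnbd2*, with 0.50 on day 3. Just outside were *Dynlt1c*, a dynein light chain gene, with 0.56 on day 0 and 0.32 on day 3, *Slfn5*, a Schlafen family gene, with 0.38 and 0.29, and *Slc1a5*, a glutamine transporter, with 0.41 and 0.16.

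**Figure D3:**
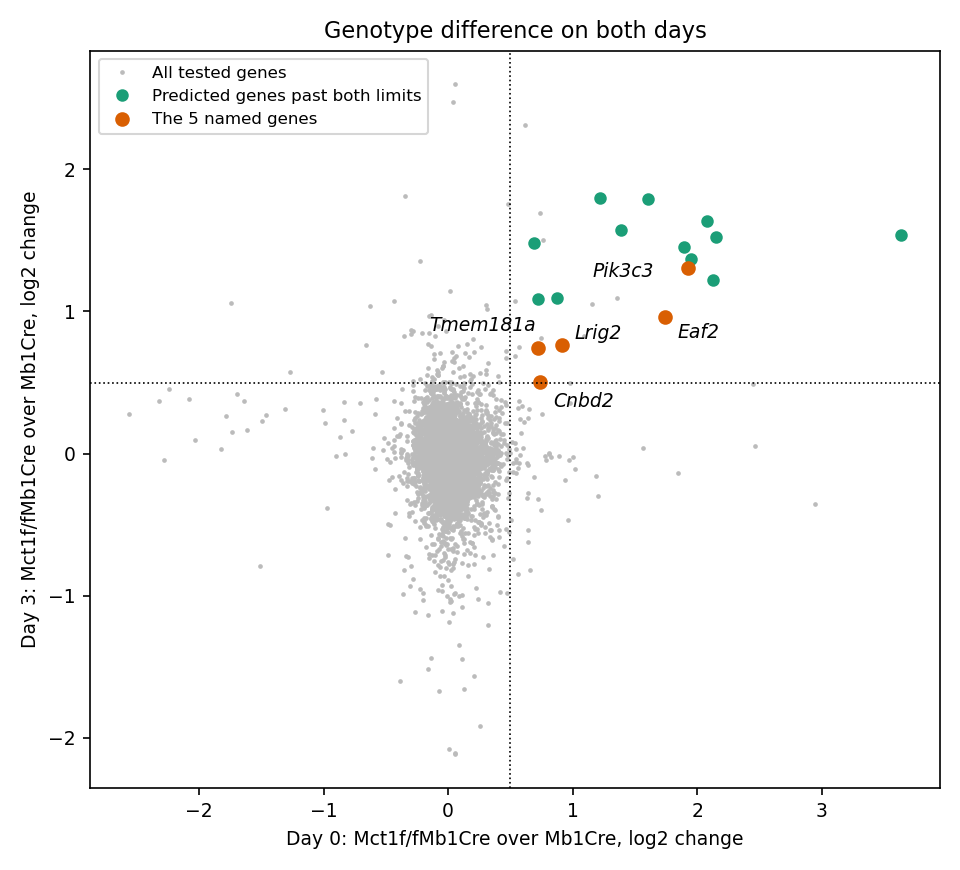
Genotype difference (Mct1f/fMb1Cre over Mb1Cre, log2 change) on day 0 (horizontal axis) and day 3 (vertical axis) for 10823 tested genes (grey), the 12 predicted genes past the limits on both days (green) and the 5 named genes (orange). Dotted lines mark the limit of 0.5, and *Cnbd2* sits on it at 0.50 on day 3.

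Across the 9 libraries the 5 genes fell into a pair and a trio by likeness of their levels. Pearson's r of log2(FPKM + 1) was 0.98 between *Pik3c3* and *Eaf2*, and 0.97 for *Lrig2* with *Cnbd2*, 0.95 for *Lrig2* with *Tmem181a* and 0.90 for *Tmem181a* with *Cnbd2*. Between the pair and the trio r ran from 0.36 (*Eaf2* with *Cnbd2*) to 0.64 (*Pik3c3* with *Tmem181a*). These are descriptions over 9 libraries that share group structure and normalization, and a difference between genotypes that the genes were chosen for raises every r. The FPKM ratio of *Pik3c3* to *Eaf2* was 2.80 to 2.84 in Mb1Cre day 0, 3.04 to 3.18 in Mct1f/fMb1Cre day 0, 2.08 to 2.25 in Mb1Cre day 3 and 2.63 to 2.78 in Mct1f/fMb1Cre day 3, so that on each day it was higher in Mct1f/fMb1Cre.

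The tested genes most like each of the 5 over the 9 libraries were named genes for *Lrig2* and predicted genes for *Pik3c3* and *Eaf2*. *Pik3c3* was most like the predicted genes *Gm42102* (r = 0.998), *LOC115488029* (0.997) and *Gm52197* (0.994). *Gm42102* had 58.3 and 65.9 FPKM in Mb1Cre day 0, 319 and 183.5 FPKM in Mct1f/fMb1Cre day 0, 72.9 and 73.6 FPKM in Mb1Cre day 3 and 196, 185 and 192 FPKM in Mct1f/fMb1Cre day 3, so that the same day 0 library stood highest as for *Pik3c3*. *Eaf2* was most like *Gm40453* (0.988), *Gm52197* (0.982) and *Gm41844* (0.981), which are predicted genes too. *Lrig2* was most like *Hpn*, a membrane protease gene (0.98), *Parvg*, an actin-linked adaptor gene (0.97), and *Cnbd2*. *Tmem181a* was most like *Slfn5* (0.963), *Ccdc17* (0.956) and *Lrig2*, and *Cnbd2* was most like *Clic3* (0.980), *Lilr4b* (0.979) and *Gm39701* (0.978).

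The 5 genes lie on 5 chromosomes. In the RefSeq annotation of GRCm38.p6, *Lrig2* spans chr3:104453980-104511918, *Pik3c3* chr18:30265615-30348126, *Eaf2* chr16:36792884-36875068, *Tmem181a* chr17:6256726-6308314 and *Cnbd2* chr2:156311946-156375638. Only *Lrig2* shares a chromosome with the floxed gene, since *Slc16a1* spans chr3:104638664-104658462. The gap between *Lrig2* and *Slc16a1* is 126.7 kb, and the 5′ ends of these oppositely oriented genes face each other across it. *Cd79a*, which carries Cre, is on chr7, where none of the 5 genes lies.

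Near the floxed gene, *Lrig2* differed between genotypes and its neighbours were not called. None of the 11 other tested genes within 1 Mb of *Slc16a1* was called by limma on day 0 or on day 3, with 2 and 3 of 11 at an unadjusted p under 0.05. Their median difference was -0.05 on day 0 and 0.03 on day 3, beside 0.00 and -0.01 for all tested genes. *Mov10*, an RNA helicase gene 156 kb from *Slc16a1* between left ends, had 33.1 and 31.5 FPKM in Mb1Cre day 3 and 23.3, 23.8 and 25.1 FPKM in Mct1f/fMb1Cre day 3. Its difference of -0.41 ± 0.06 (SE, limma adjusted p = 0.000983) was below the limit of 0.5 and opposite in sign to that of *Lrig2*. *Phtf1* differed by 0.17 on day 3 (adjusted p = 0.0392), and the day 3 differences of the other 9 (*Rhoc*, *Ptpn22*, *Rsbn1*, *Hipk1*, *St7l*, *Magi3*, *Capza1*, *Ap4b1* and *Dclre1b*) were between -0.12 and 0.15. Within 5 Mb, 0 of 64 genes were called on day 0 and 4 on day 3, 1 higher and 3 lower. At an unadjusted p under 0.05 there were 7 on day 0 and 18 on day 3. Of all tested genes, 0.277% were called on day 0 and 2.42% on day 3.

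Of the genes beside *Eaf2*, neither *Golgb1* nor *Iqcb1* was called between genotypes on either day. *Golgb1*, a Golgi protein gene whose annotated span begins 24 bases beyond that of *Eaf2*, had 9.71 and 9.05 FPKM in Mb1Cre day 0 and 9.67 and 9.69 FPKM in Mct1f/fMb1Cre day 0. Its genotype difference was 0.04 ± 0.06 on day 0 (limma adjusted p = 0.832) and -0.14 ± 0.05 on day 3 (adjusted p = 0.101). *Iqcb1*, which lies inside the *Eaf2* span, differed by 0.09 (adjusted p = 0.649) and -0.10 (adjusted p = 0.320).

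*Slc15a2*, a peptide transporter gene 7.72 kb from *Eaf2*, had uneven control libraries. It had 11.02 and 1.66 FPKM in Mb1Cre day 0, 30.4 and 29.2 FPKM in Mct1f/fMb1Cre day 0, 2.37 and 2.17 FPKM in Mb1Cre day 3 and 3.64, 3.26 and 3.86 FPKM in Mct1f/fMb1Cre day 3. The Mct1f/fMb1Cre libraries were higher without overlap on each day, and neither difference, 2.45 ± 0.48 (adjusted p = 0.0687) and 0.49 ± 0.44 (adjusted p = 0.516), was called. *Cd86*, a costimulatory ligand gene, was the only one of 18 tested genes within 1 Mb of *Eaf2* to be called. It was lower in Mct1f/fMb1Cre cells on day 3, with a difference of -0.52 ± 0.06 (limma adjusted p = 0.000281). Of the 18, 2 on day 0 and 5 on day 3 had an unadjusted p under 0.05.

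In the local gene array around *Tmem181a*, *Dynlt1b* and *Dynlt1c* were each called higher in Mct1f/fMb1Cre cells on 1 of the 2 days, and *Dynlt1a* and *Dynlt1f* on neither. The array holds *Tmem181a* with *Dynlt1a*, whose annotated span overlaps it by 1.971 kb at its end, then *Dynlt1b* with the copy *Tmem181b-ps* and *Dynlt1c* and *Dynlt1f* with the copy *Tmem181c-ps*. The Dynlt1 genes encode light chains of the dynein motor. *Dynlt1b* had 10.8 and 12.3 FPKM in Mb1Cre day 0, 14.6 and 28.2 FPKM in Mct1f/fMb1Cre day 0, 14.7 and 9.79 FPKM in Mb1Cre day 3 and 39.0, 33.8 and 35.2 FPKM in Mct1f/fMb1Cre day 3. It was called on day 3 (1.50 ± 0.22, limma adjusted p = 0.00133) and not on day 0 (0.76 ± 0.24, adjusted p = 0.274).

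*Dynlt1c* was called on day 0 (0.56 ± 0.09, adjusted p = 0.0337), with 73.8 and 80.1 FPKM in Mb1Cre and 103 and 125 FPKM in Mct1f/fMb1Cre. *Dynlt1a* differed by 0.45 on day 0 (adjusted p = 0.131) and 0.22 on day 3 (adjusted p = 0.152). *Dynlt1f* differed by 0.18 on day 0 (adjusted p = 0.540) and, in the opposite direction and below the limit on the change, by -0.44 on day 3 (adjusted p = 0.0105). Of the 19 tested genes within 1 Mb of *Tmem181a*, *Sytl3*, a synaptotagmin-like gene, and the predicted gene *Gm2808* were called lower on day 3, with differences of -0.97 ± 0.14 (adjusted p = 0.000929) and -0.54 ± 0.09 (adjusted p = 0.00332). *Sytl3* had 22.9 and 21.7 FPKM in Mb1Cre day 3 and 9.41, 12.1 and 11.2 FPKM in Mct1f/fMb1Cre day 3. Of the 19 genes, limma called 1 on day 0, which was higher, and 3 on day 3, 1 higher and 2 lower. At an unadjusted p under 0.05 there were 9 on day 0 and 11 on day 3. Calls within 1 Mb of *Tmem181a* thus went in both directions, where 0.277% and 2.42% of all tested genes were called.

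Near *Cnbd2* and *Pik3c3* no neighbour was called. Of 29 tested genes within 1 Mb of *Cnbd2*, limma called 0 on either day, with 0 on day 0 and 7 on day 3 at an unadjusted p under 0.05. *Scand1*, whose span overlaps the start of *Cnbd2* by 0.759 kb, differed by 0.02 on day 0 (adjusted p = 0.979) and 0.23 on day 3 (adjusted p = 0.278). No gene of the table lies within 1 Mb of *Pik3c3*, and 0 of 27 within 5 Mb were called on either day, with 2 and 7 at an unadjusted p under 0.05. Within 1 Mb of *Cd79a*, the Cre locus, 0 of 40 were called on day 0 and 2 on day 3, both lower. At an unadjusted p under 0.05 there were 1 on day 0 and 16 on day 3. Of all tested genes, 0.277% and 2.42% were called.

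**Figure D4:**
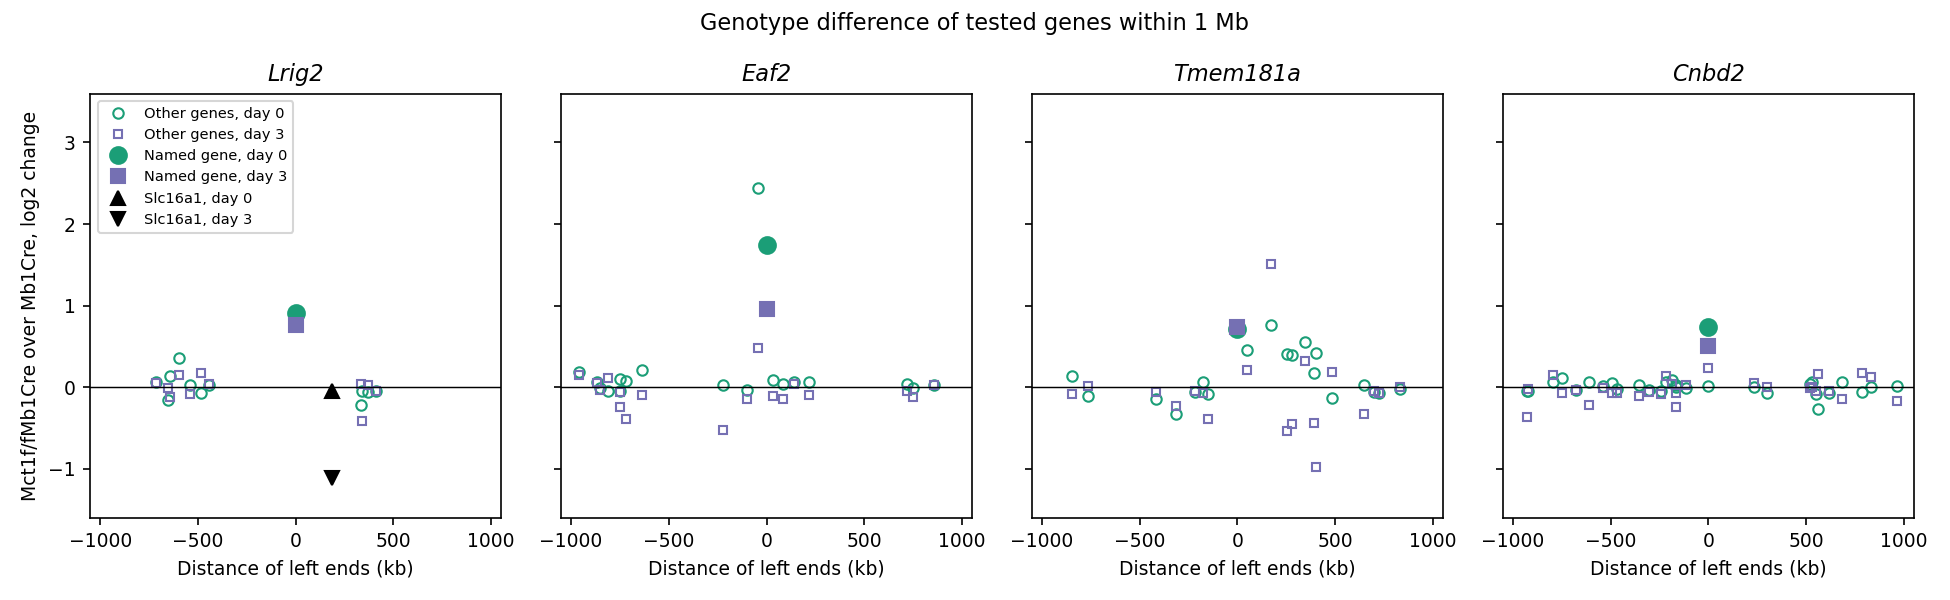
Genotype difference (vertical axis, log2 change) of tested genes within 1 Mb of *Lrig2*, *Eaf2*, *Tmem181a* and *Cnbd2*, by the distance in kb of the left end of each annotated span from that of the named gene. Filled symbols are the named gene on day 0 (circle) and day 3 (square), open symbols are other genes and triangles in the *Lrig2* panel are *Slc16a1*. *Lrig2* and *Cnbd2* stand above their neighbours, while *Slc15a2* stands above *Eaf2* on day 0 (2.45). *Dynlt1b* stands above *Tmem181a* on day 0 (0.76 against 0.72) and on day 3 (1.50).

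*Tmem181a* and *Cnbd2* share sequence with other genes, so reads could be split between them in the authors' quantification. Of the distinct 50-base windows in the GENCODE transcripts of each gene, 34.4% for *Tmem181a* and 25.2% for *Cnbd2* also stood in transcripts of other genes, against 0.0503% for *Lrig2*, 1.47% for *Eaf2* and 0% for *Pik3c3*. For *Tmem181a* the shared windows were mostly with *Tmem181b-ps* (28.3%) and *Tmem181c-ps* (12.4%). For *Cnbd2* they were spread over 15 other genes, with the most for *Cep85* (10.0%), *Gm14252* (8.62%) and *Scand1* (5.38%). The Dynlt1 genes shared more, with 70.5% for *Dynlt1a*, 83.2% for *Dynlt1b* and 88.9% for *Dynlt1c*. The values of *Tmem181a*, *Cnbd2* and the Dynlt1 genes are therefore uncertain as to their gene of origin.

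A 60-base stretch of exon 2 of *Tmem181a* is shown with its copies as an example of the shared part. It was picked for its likeness, so it does not show how alike the 3 loci are elsewhere. Coordinates are of GRCm38, sequences are from GENCODE transcripts, and the capital marks the only base at which the 3 differ.
Tmem181a, chr17:6280598-6280657, plus strand: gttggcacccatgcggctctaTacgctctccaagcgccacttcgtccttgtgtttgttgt
Tmem181b-ps, chr17:6466963-6467022, minus strand: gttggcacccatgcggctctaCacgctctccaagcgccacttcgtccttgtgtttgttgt
Tmem181c-ps, chr17:6639731-6639790, minus strand: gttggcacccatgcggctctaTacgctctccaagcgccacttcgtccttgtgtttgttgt
Over these 60 bases *Tmem181c-ps* is identical to *Tmem181a* and *Tmem181b-ps* differs at 1 base.

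In *Cnbd2* the shared part includes a run of 338 bases that is identical in a transcript of *Cep85*. *Cep85*, a centrosomal protein gene, lies on chr4. A stretch of 60 of these bases, from coding exon 10 of a *Cnbd2* transcript, is shown to identify the stretch.
Cnbd2, chr2:156356556-156356615, plus strand: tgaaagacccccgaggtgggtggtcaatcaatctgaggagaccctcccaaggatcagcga
*Cep85* had 6.18 and 5.27 FPKM in Mb1Cre day 0, 3.32 and 4.33 FPKM in Mct1f/fMb1Cre day 0, 6.01 and 5.73 FPKM in Mb1Cre day 3 and 3.22, 3.21 and 3.12 FPKM in Mct1f/fMb1Cre day 3. Within each day it was thus lower in the genotype with the higher *Cnbd2*. The differences were -0.48 ± 0.10 on day 0 (limma adjusted p = 0.0999) and -0.72 ± 0.09 on day 3 (adjusted p = 0.000681). With activation *Cnbd2* fell, while *Cep85* changed by -0.08 ± 0.07 (adjusted p = 0.279) in the average over the genotypes. The day 0 means in Mb1Cre and Mct1f/fMb1Cre were 5.7 and 3.8 FPKM for *Cep85* and 456 and 760 FPKM for *Cnbd2*. An exchange of reads between these genes was not tested. *Cep85* was chosen for this shared sequence, after its values were seen.

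None of the tested partners and relatives of the 5 genes was called between genotypes, on a background of few calls. The relatives *Lrig1*, *Lrig3* and *Cnbd1* and the copies *Tmem181b-ps* and *Tmem181c-ps* were not among the genes tested. Of 68 tested genes in 5 lists, limma called 0 on day 0 and 0 on day 3, with 4 and 24 at an unadjusted p under 0.05, while 0.277% and 2.42% of all tested genes were called, so that 0 of 68 does not set the partners apart. Their median difference was -0.02 on day 0 and -0.01 on day 3. For *Pik3c3* the list held 26 genes of the class III kinase complex and the PI3P pathway, with 12 called lower and none higher with activation in the average over the genotypes, where 33.0% of all tested genes were called lower and 23.9% higher. *Pik3r4*, the regulatory subunit of VPS34, had 22.0 and 21.1 FPKM in Mb1Cre day 0 and 22.4 and 22.9 FPKM in Mct1f/fMb1Cre day 0, and differed by 0.07 ± 0.06 on day 0 (adjusted p = 0.700) and 0.16 ± 0.05 on day 3 (adjusted p = 0.0748). *Becn1*, another subunit, differed by -0.04 (adjusted p = 0.768) and -0.07 (adjusted p = 0.257). With activation *Pik3r4* changed by -0.83 ± 0.04 (adjusted p = 2.79e-09), while *Pik3c3* was not called.

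For *Eaf2* the list held 20 genes of the ELL, EAF and super elongation complexes, of which 1 rose and 6 fell with activation. *Eaf1*, the closest relative, had 15.9 to 16.3 FPKM in Mb1Cre day 0 and 15.5 to 16.2 FPKM in Mct1f/fMb1Cre day 0, and differed by -0.02 on day 0 (adjusted p = 0.934) and 0.11 on day 3 (adjusted p = 0.166). *Ell2*, an elongation factor of antibody-secreting cells, rose with activation by 1.42 ± 0.05 (adjusted p = 1.73e-10) and *Ell3* changed by -4.02 ± 0.06 (adjusted p = 2.69e-13). Between genotypes *Ell2* differed by 0.02 on day 0 and -0.05 on day 3, and *Ell3* by 0.09 and, below the limit, 0.35 (adjusted p = 0.0148).

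For *Lrig2* only 5 of the 20 list genes passed the filter on low values. Its closest relatives were near the floor, with *Lrig1* at 0.42 to 0.67 FPKM on day 0 and 0.01 to 0.05 FPKM on day 3 and *Lrig3* at 0.08 to 0.26 FPKM over all libraries, so *Lrig2* was the only member of its family above 1 FPKM. Of the 5, 2 fell with activation and none rose. Of 6 tested genes in the list of TMEM181 copies and related proteins, none of them a copy, 2 fell. Of 11 tested cyclic nucleotide binding proteins, 1 rose and 6 fell. Over all 5 lists, 2 of 68 were called higher and 28 lower with activation, beside 23.9% and 33.0% of all tested genes, with a median change of -0.45 beside -0.14 for all tested genes.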

How the data were processed

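Expression was measured by RNA-seq in 9 libraries, placed in groups from their labels. FPKM values were deposited by the authors for 17596 genes, rounded to 2 decimals and assembled by the sequencing institute. The submitters' processing notes name Bowtie2 (version not given) and the builds GRCm38 and mm10, and the strand setting is not given in the sources used here. The labels name TRNzol for RNA extraction and the study's methods a column kit. Depth is unknown, so precision rests on 2 or 3 libraries per group.

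Here log2(FPKM + 1) was fitted with limma 3.58.1 in R 4.3.3 for the 10823 genes whose mean reached 1 FPKM. The model had 1 mean per group and an intensity trend in the moderated variance, and p was adjusted by Benjamini-Hochberg over those genes. A call needed both an adjusted p below 0.05 and a log2 change larger than 0.5 in size. The fit was tested on simulated data. Positions came from the RefSeq table of GRCm38.p6, in which 17541 genes matched, and "within 1 Mb" compares left ends of annotated spans. Shared windows and transcripts came from GENCODE for GRCm38. The genes named were the 5, *Slc16a1*, tested genes within 1 Mb of it, called genes within 1 Mb of the 5, close relatives, the 3 most correlated genes and those just outside the limits. *Cep85*, *Golgb1*, *Iqcb1*, *Slc15a2* and *Scand1* were named for shared sequence or adjacency after their values were seen. The 5 genes and all lists were chosen with earlier results of these data known. Libraries with the same replicate number in the labels showed no sign of pairing, with correlations of deviations between -0.12 and 0.09. With so few libraries per group this cannot show that they were unpaired. Alternatives varied the pseudocount, filter, scaling, fit and limits, and left out each library. Python 3.11.15 and matplotlib 3.10.9 were used.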

Additional observations from a re-analysis of the deposited data

Results flagged for a closer look

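The activation difference of *Pik3c3* was 0.29 in Mb1Cre cells (limma adjusted p = 0.0711) and -0.33 in Mct1f/fMb1Cre cells (adjusted p = 0.0326, below the limit of 0.5), so neither was called. The libraries of the 2 days did not overlap in either genotype and lay in opposite order. In Mct1f/fMb1Cre cells the gap was narrow, with 119.9 FPKM on day 0 beside 118.43 FPKM on day 3. The share of all genes without overlap between the days is not given here, so nothing is read from it. The difference between the genotypes in this change was not tested, since both contrasts in it chose the gene. Among *Slc16a1*, its neighbours and the called neighbours of the 5 genes, the genotype difference of 4 genes changed between the days by limma's interaction test. It changed by -1.06 for *Slc16a1* (adjusted p = 0.000424), by -0.55 for *Cd86* (adjusted p = 0.00502), by -0.95 for the predicted gene *Gm2808* (adjusted p = 0.00319) and by -1.39 for *Sytl3* (adjusted p = 0.00309). *Cd86*, *Gm2808* and *Sytl3* were named for their genotype call on day 3, which is part of this difference. Their p-values here are therefore not read as a test. Of all tested genes, 2.22% were called lower and 1.02% higher in this test.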

How the results depend on the processing

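Each result was recomputed under 21 or 22 alternatives. The number of the 5 genes past the limits on both days was 5 and fell to 2 with a pseudocount of 5, to 3 with no filter on low values, to 0 with only the libraries compared in the fit, where none passed on day 0, and to 1 with a log2 limit of 1. It was 4 or 5 when 1 library was left out, *Cnbd2* being the gene lost. *Cnbd2* was also the gene lost, leaving 4, with the replicate block, with median-of-ratios scaling and without the intensity trend. The number called with activation fell to 1 with a log2 limit of 1, in the average and in Mb1Cre cells, and was otherwise within 1.5 times. The replicate block kept 3, 4 and 3 of the 5 called with activation in the average, in Mb1Cre and in Mct1f/fMb1Cre cells, and changed no other call of these counts. Crossing the numbers of the control libraries, an alternative added after seeing the data, also called 4 of the 5 genes with activation in Mb1Cre cells. Signs reversed for *Eaf2* in Mct1f/fMb1Cre cells under median-of-ratios scaling (0.077) and without Mct1f/fMb1Cre day 0 replicate 1 (0.12; -0.40 to 0.12 over all libraries left out), and for the average change of *Pik3c3* under median-of-ratios scaling (0.20), without Mb1Cre day 0 replicate 2 (0.03) and without Mct1f/fMb1Cre day 0 replicate 1 (0.13; -0.16 to 0.13 over all libraries left out). The cause was not tested.

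Near *Slc16a1*, 0 to 1 genes were called on day 0 when libraries were left out, the 1 being without Mb1Cre day 0 replicate 2, and on day 3 there were 4 within 5 Mb and 2 with no limit on the change. Partner genes called with activation numbered 12, 13 and 11 with a log2 limit of 1 and 58, 56 and 55 with no limit, in the average, Mb1Cre and Mct1f/fMb1Cre cells. On day 3 between genotypes they numbered 2 with a pseudocount of 0.1, 11 with no limit and 0 to 1 when libraries were left out. All genes called between genotypes on day 0 numbered 22 to 102 without 1 library against 30, with 102 without Mb1Cre day 0 replicate 2 and 67 without Mct1f/fMb1Cre day 0 replicate 2. Scaling moved the median activation change of all genes from -0.14 to -0.31 (common total) or 0.06 (median of ratios), and the share of calls that were higher from 42.0% to 31.7% or 55.8%. Groups of 2 or 3 libraries and unknown depth limit all values.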
